A study of Rattus norvegicus with 2 samples.

Results

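The genes described here are 51 transcription factor and chromatin protein genes of neural progenitors and developing neurons, chosen as a list of names and grouped by their DNA-binding class. SOX, POU, PAX, basic helix-loop-helix (bHLH), T-box, homeobox, zinc finger and nuclear receptor proteins are represented, with the HMGA chromatin proteins. In the embryonic cortex, SOX and PAX factors maintain dividing progenitors, and proneural bHLH proteins such as neurogenins pair with the broadly expressed E proteins Tcf3, Tcf4 and Tcf12 to start neuronal differentiation. NeuroD and T-box factors then act in young glutamatergic neurons, while ID and HES proteins oppose the proneural factors. The accessions on the array matched 42 of the 51 genes to 52 probes, each printed as 1 spot, among 10852 genes measured on one array and 10241 on the other.

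Cortical neural precursor cells from SD rat embryos at day 14 were expanded in N2 medium with 10 ng/mL of the mitogen bFGF and transiently transfected with 4 µg of plasmid. The RNAs compared came from cells carrying the empty vector (MSCV-IRES-EGFP) after 2 days without bFGF in NB medium, from cells carrying rat Bcl-2 (rBcl-2-MSCV-IRES-EGFP) with bFGF, and from empty vector cells with bFGF in N2 medium. Loss of bFGF and the change of medium cannot be told apart. On the withdrawal array, the red dye (Cy5) is labelled vector without bFGF and the green dye (Cy3) vector with bFGF. On the array labelled Bcl-2, red is labelled Bcl-2 with bFGF and green again vector with bFGF. There is 1 array per comparison, with no replicate and no dye swap, so no test was possible and every value describes these 2 arrays. The number of animals or cultures behind an RNA and the share of cells that took up plasmid are not given in the sources used here. In bulk RNA, fewer cells of a type and less RNA per cell cannot be told apart.

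Which way the ratios run cannot be settled. By their labels both arrays share the control RNA and the dye orientation, yet their log2 ratios correlated at r = -0.68 over 42011 gene spots (-0.14 with the Feature Extraction ratio). For the 39 probes of the listed genes that could be read in all 4 channels, log2 signals of both control (green) channels differed with an SD of 0.23. The corresponding SD between Bcl-2 array green and withdrawal array red was 0.18, and over 26861 gene spots these SDs were 0.40 and 0.14. Between Bcl-2 array red and withdrawal array green, the SD was 0.17 for the 39 probes and 0.15 over the gene spots. The log2 ratio of Bcl2 itself was -0.02 on the array that carries its name and 0.39 on the withdrawal array. Ratios below are red over green as labelled, and with the sign turned each higher value becomes a lower one of the same size. Because both arrays are labelled with the same control RNA, the values of each gene on them are given side by side only. Median net signals ranged from 189 to 284.5 over the 4 channels, and 66.1% to 72.0% of gene spots were well above background.

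A gene was counted as measured on an array if at least 1 probe was well above background in at least 1 channel. On the withdrawal array 33 listed genes were measured in both channels, and Otx2 in red alone. On the array labelled Bcl-2, 32 were measured in both channels, Neurod2 in red alone and Hmga2 in green alone. The neuronal genes Neurog1, Neurod1, Neurod6, Tbr1, Fezf2 and Myt1l, and the homeobox gene Prox1, were not well above background in any of the 4 channels. No probe was matched for Sox1, Sox3, Neurog2, Eomes, Insm1, Emx1, Bcl11b, Meis2 or Cux1, which were not analysed here. The label of neural precursor cells was set against its markers: Nes, Vim, Fabp7, Slc1a3, Prom1, Notch1, Hes5, Sox2 and Pax6 were measured on both arrays, and Msi1 on the withdrawal array alone. This covers detection only, and the oligodendrocyte lineage genes Olig1 and Olig2 were also measured on both arrays, with the signals given below.

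Among genes measured in both channels, the median absolute log2 ratio on the withdrawal array was 0.24 for the listed genes and 0.21 for all genes. On the array labelled Bcl-2 these were 0.19 and 0.18. On the withdrawal array, 0 of 34 measured genes were at least 2-fold in either direction, where 2.89% of all 10852 genes were (2.42% higher in red and 0.47% lower). There, 2 were at least 1.5-fold higher in red, Sox4 and Pax3, where 7.94% of all genes were, and 0 were at least 1.5-fold lower, where 2.79% were (10.7% in either direction). On the array labelled Bcl-2, Neurod2, well above background in red alone, was by its fitted ratio the 1 gene of 34 past 2-fold, higher in red as 0.557% of all genes were, and 0 were at least 2-fold lower, where 2% were (2.56% in either direction). It was also the 1 listed gene past 1.5-fold there, where 2.29% of all genes were higher, 6.64% lower and 8.93% either. The median log2 ratio of the listed genes was 0.22 on the withdrawal array (-0.22 with the sign turned), beside 0.03 over all genes. There, 27 of the 34 lay above 0, where 54.2% of all genes did. The median was -0.12 on the array labelled Bcl-2 (0.12 with the sign turned), beside -0.01 over all genes. Of the 34, 23 lay below 0, where 5302 of 10241 genes did.

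Technical error was read from probes, since RNAs were not replicated. Probes printed repeatedly on an array differed with an SD of 0.06 (withdrawal) and 0.05 (array labelled Bcl-2) on the log2 scale, and different probes of a gene with an SD of 0.21 and 0.20. Of the 33 listed genes measured in both channels on the withdrawal array, 14 lay within that spread between probes, 17 above it and 2 below it. Above it were Pax3, Sox4, Tcf4, Tcf12, Pou3f2, Sox8, Nr2f1, Nr2e1, Pou2f1, Sox6, Pou3f3, Otx1, Pou3f1, Zic2, Sox5, Pax6 and Emx2. Below it were Tcf3 and Hmga1. Of all 9795 genes measured in both channels there, 51.1% lay within it, 2684 above and 2107 below. For the array labelled Bcl-2, 18 of 32 lay within it, 5 above and 9 below. Myt1, Gli3, Pax3, Rest and Sox6 lay above it. Pou3f2, Tcf4, Nr2f2, Nr2f1, Sox4, Sox2, Pou2f1, Meis1 and Nr2e1 lay below it. Of all 9540 genes there, 54.0% lay within it, 1842 above and 2549 below. The deposited error of the log ratio comes from Feature Extraction, includes no replicate RNA and exceeded the SD between repeated spots. For probes of these genes well above background in both channels, it was 0.20 to 0.33 on the log2 scale on the withdrawal array. On the other array it was 0.20 to 0.26. For probes well above background in 1 channel it was larger, at 0.74 for Otx2 and 0.56 for a Cux2 probe on the withdrawal array, and at 0.58 for Neurod2, 0.43 for Hmga2 and 0.65 for a Cux2 probe on the other.

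**Figure D1:**
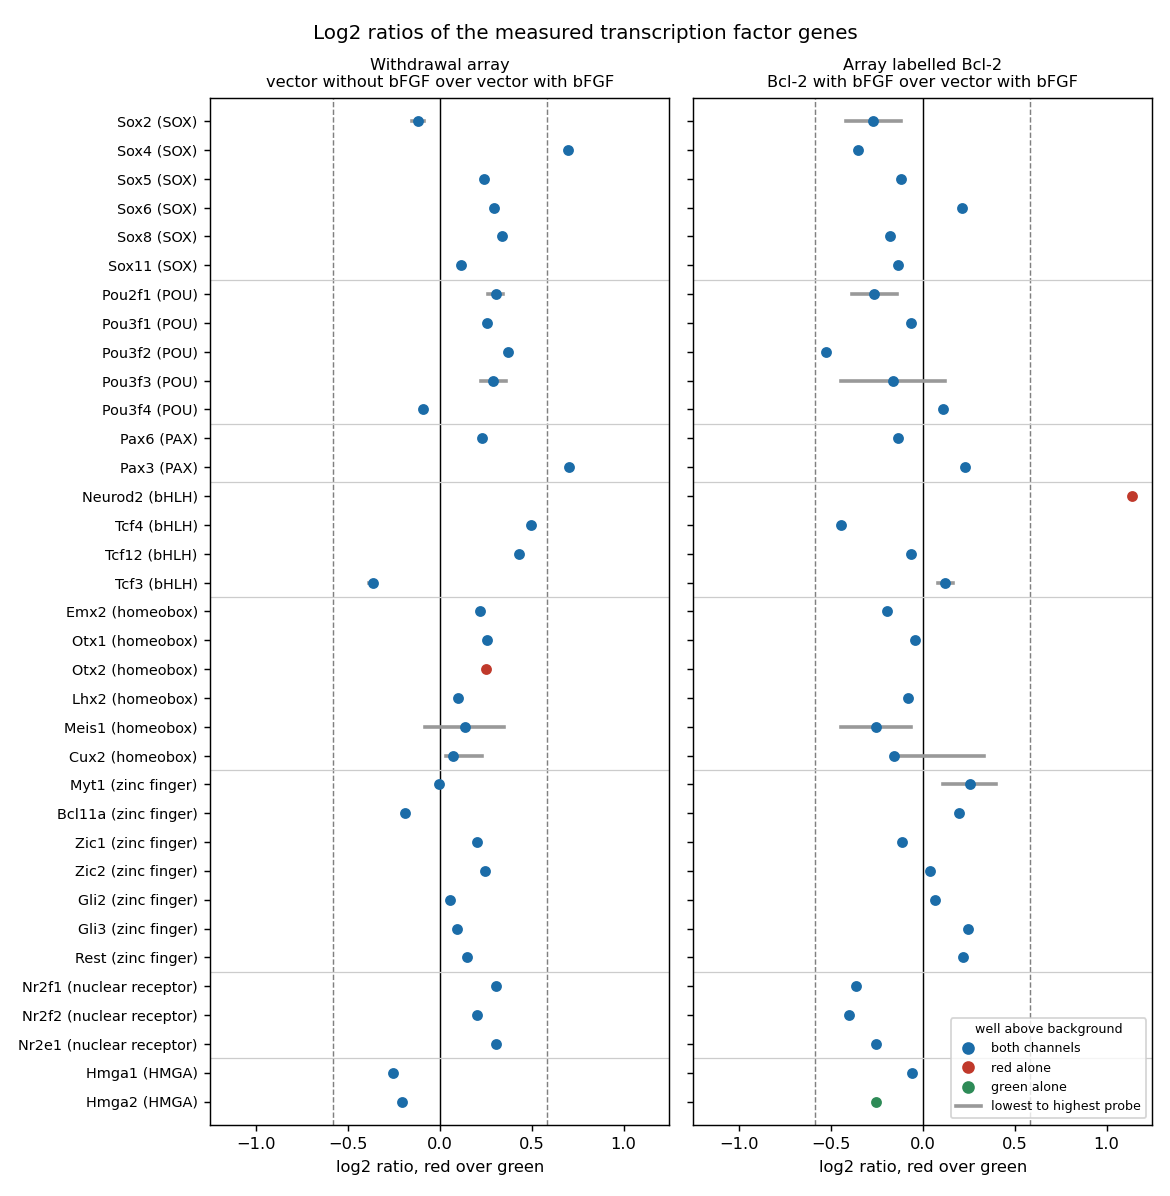
Each point is the log2 ratio of red over green (horizontal axis) of a listed gene on the withdrawal array (left) and the array labelled Bcl-2 (right), with grey bars from the lowest to the highest probe and dashed lines at 1.5-fold. Sox4 and Pax3 pass the dashed line on the left and Neurod2, well above background in red alone, on the right, while every other gene lies between the lines. The points of Sox2, Pou3f4, Myt1, Otx2, Gli2 and Gli3 on the left and of Pou3f3, Pou3f4, Otx1, Hmga1, Zic2 and Gli2 on the right reach or cross 0 in at least 1 alternative scaling, filter or probe choice, and all points change sides with the sign turned.

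**Figure D2:**
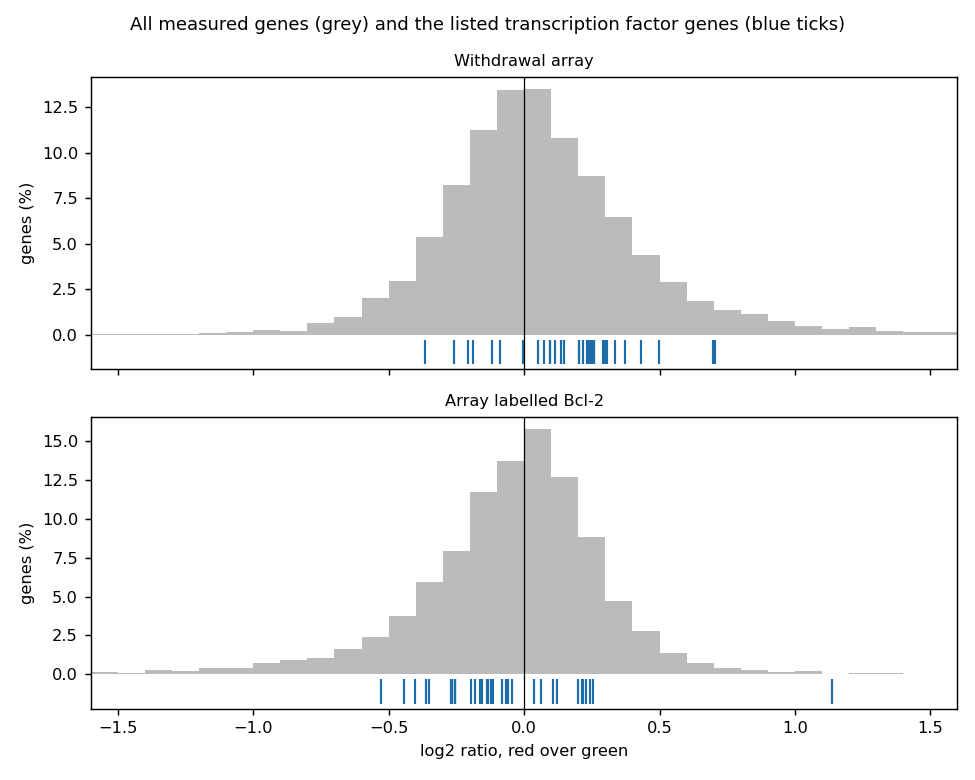
Grey bars give the percentage of all measured genes by log2 ratio of red over green in steps of 0.1, and blue ticks the listed genes, on the withdrawal array (top) and the array labelled Bcl-2 (bottom). The axis ends at -1.6 and 1.6, which leaves out 76 and 53 genes. Most ticks lie within the central part of the distribution. Outside it are Neurod2 at 1.14 on the array labelled Bcl-2, and Sox4 at 0.70 and Pax3 at 0.71 on the withdrawal array. These 2 are past 1.5-fold, where 7.94% of all genes were higher in red.

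SOX proteins bind DNA through an HMG box. Of the 8 listed SOX genes, 6 were measured, with a median log2 ratio of 0.27 on the withdrawal array and -0.16 on the array labelled Bcl-2. Sox2, which holds neural cells in the progenitor state, had a signal of 45431 without bFGF against 50439 with bFGF on its brightest probe, and 43014 with Bcl-2 against 57560 with vector. Its ratios over 2 probes were -0.12 and -0.27, and the first, inside the spread between probes, became 0.24 with median centring. Sox4, a partner of Sox11 in activating neuronal genes, had signals of 8922 without bFGF against 5496 with bFGF, and 6892 with Bcl-2 against 8792 with vector. Its ratios were 0.70 and -0.35, each larger than the spread between probes. Sox11 lay inside that spread, at 0.11 with 609 against 564, and at -0.13 with 599 against 657. Sox4 and Sox11 each rest on 1 probe.

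Sox8, a SOXE factor of glial precursors, had signals of 1978 without bFGF against 1568 with bFGF (log2 ratio 0.34). With Bcl-2 it had 1776 against 2014 with vector (-0.18, inside the spread between probes). Sox5 and Sox6 are SOXD proteins without a transactivation domain. Sox5 was at 0.24 and -0.12, inside the spread on the second array. Sox6 was at 0.29 and 0.22, with signals of 501 against 409 and 559 against 481.

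POU proteins bind octamer sequences, often beside SOX proteins, and all 5 listed genes were measured. Their median log2 ratio was 0.29 on the withdrawal array and -0.16 on the array labelled Bcl-2. Pou3f2 (Brn2), a factor of upper-layer cortical progenitors and neurons, had signals of 1334 without bFGF against 1031 with bFGF, and 1109 with Bcl-2 against 1601 with vector. Its ratio of -0.53 was the lowest among the listed genes on the array labelled Bcl-2, and on the withdrawal array it was 0.37. Pou2f1 (Oct1), which is broadly expressed, was at 0.30 and -0.27 over 2 probes that agreed in sign on each array. Pou3f1 was at 0.26 and -0.06, the second inside the spread between probes.

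Pou3f3 (Brn1) was at 0.29 on the withdrawal array, where both its probes lay above 0. Its probes disagreed on the array labelled Bcl-2, at 0.12 with signals of 7703 against 7096 and at -0.45 with 1986 against 2706, so no direction can be given there. Pou3f4 (Brn4) was at -0.09 and 0.11, both inside the spread, and median centring turned both signs, to 0.14 and -0.02.

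PAX proteins carry a paired domain. Pax6, a factor of cortical radial glia, had signals of 485 without bFGF against 413 with bFGF and 438 with Bcl-2 against 482 with vector. These gave ratios of 0.23 and -0.14, the second inside the spread between probes. Pax3, a factor of the dorsal neural tube and the neural crest, had signals of 7594 without bFGF against 4657 with bFGF, and 6044 with Bcl-2 against 5160 with vector. Its ratios were 0.71, the highest of the list on the withdrawal array, and 0.23. These values come from 1 of its 2 probes. The other probe of the same accession was not well above background in any channel, with signals of 96.6 against 85.4 and 95.6 against 88.1, so the probes differ in whether Pax3 was detected. With both probes used, the ratio on the withdrawal array was 0.44. Of the neural crest markers, Sox10 was at 0.07 and 0.10, Ngfr at -0.01 on both arrays and Tfap2b at 0.11 and -0.77, and no probe was matched for Foxd3. The part of such cells in the Pax3 value was not tested.

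Among bHLH genes, the E proteins, which pair with proneural factors, were measured, and the proneural and NeuroD genes were not well above background, apart from Neurod2 in 1 channel. Tcf4 had signals of 22361 without bFGF against 15841 with bFGF, and 17826 with Bcl-2 against 24250 with vector. Its log2 ratios were 0.50 and -0.44, each more than the spread between probes. Tcf12 was at 0.43 (1950 against 1445) and -0.07 (1798 against 1881), the second inside that spread. Tcf3 (E2A) lay the other way, at -0.37 on the withdrawal array, the lowest ratio of the list. Its value on the array labelled Bcl-2, 0.12, lay inside the spread. On the withdrawal array both Tcf3 probes lay below 0: the brighter had 7018 without bFGF against 8921 with bFGF, and the dimmer 238 against 310. With median centring the Tcf3 ratio on the withdrawal array was -0.14 and with the Feature Extraction ratio -0.59.

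The NeuroD factors act in committed neurons. Neurod1 had signals of 82.3 without bFGF against 86.3 with bFGF and 86.0 with Bcl-2 against 100.4 with vector, all at the level of spots not well above background. Neurod2 was well above background in the red channel of the array labelled Bcl-2 alone, with 149 there against 67.5 with vector, and 114 without bFGF against 74.3 with bFGF on the withdrawal array. The red Neurod2 signal was 1.54-fold above the lowest green signal that counted as well above background, a comparison open to dye bias. This is no strict bound, since green signals not well above background there reached 104 for Neurod6. The fitted log2 ratio of 1.14, by which Neurod2 was counted as 2-fold, stands for a larger fold than that, and it became 4.09 with the Feature Extraction ratio. The T-box gene Tbr1, a marker of deep-layer glutamatergic neurons, had 84.2 against 87.4 and 95.7 against 101.3, and was not well above background.

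**Figure D3:**
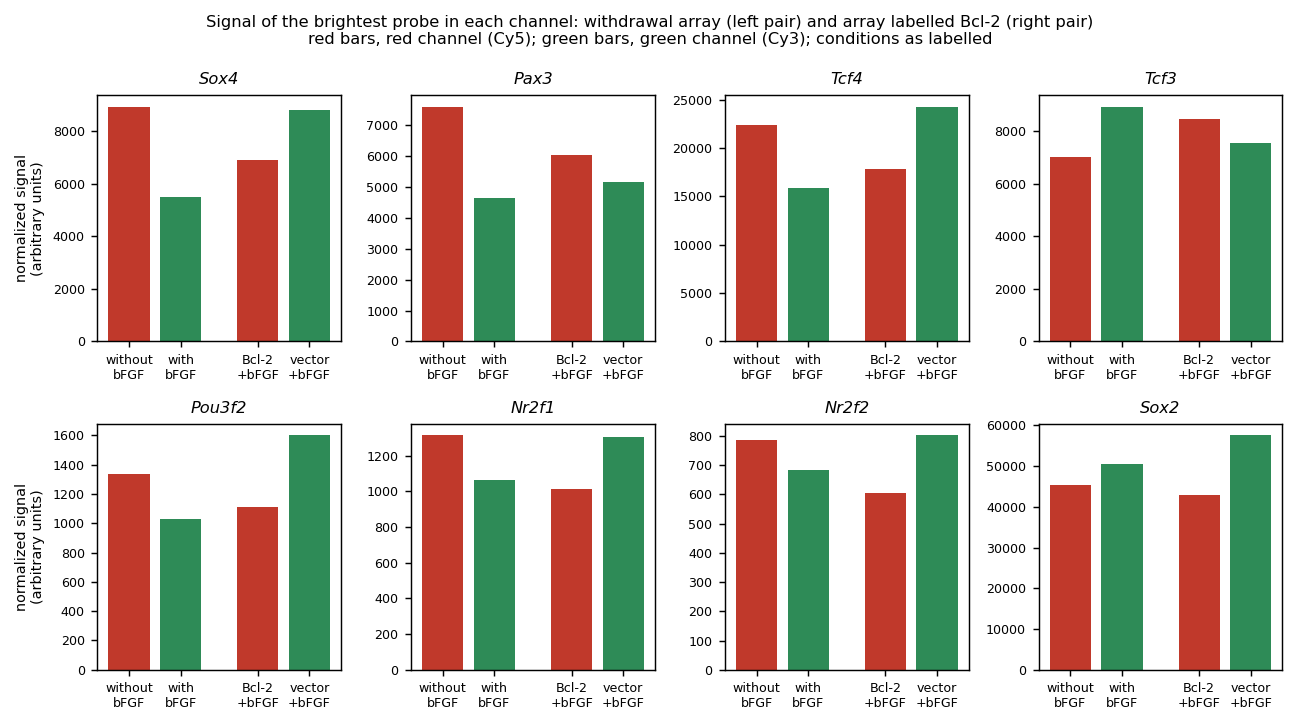
Bars give the normalized signal (arbitrary units, axes from 0, a separate scale for each gene) of the brightest probe of 8 listed genes in the red and green channels of the withdrawal array (left pair) and of the array labelled Bcl-2 (right pair), with conditions as labelled and 1 spot per bar. Sox4, Tcf4, Pou3f2, Nr2f1 and Nr2f2 have the taller bar in red on the left and in green on the right, and Tcf3 the reverse. Pax3 is taller in red on both arrays and Sox2 in green on both, where the left pair of Sox2 turns with median centring.

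The promoters of Pou3f2, Pax3, Tcf4 and Tcf3 are shown because these genes had the lowest or highest ratios of their class. In addition, Tcf4 and Tcf3, encoding paralogous E proteins, ran opposite ways on the withdrawal array beyond the spread between probes. Sequences are from RefSeq (GRCr8), 250 bases before to 50 after the first listed gene start, and 36 of the 51 genes had an entry. Capitals mark the E-box CANNTG, the motif that bHLH dimers bind, which reads the same on both strands.
Pou3f2 (chr5:40880490-40880789, minus strand): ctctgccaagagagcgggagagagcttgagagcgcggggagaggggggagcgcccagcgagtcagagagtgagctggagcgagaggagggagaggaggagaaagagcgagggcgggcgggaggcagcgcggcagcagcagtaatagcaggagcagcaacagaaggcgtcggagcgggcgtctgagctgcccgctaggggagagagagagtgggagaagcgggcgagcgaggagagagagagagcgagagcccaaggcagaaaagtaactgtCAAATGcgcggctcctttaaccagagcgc
Pax3 (chr9:87112482-87112781, minus strand): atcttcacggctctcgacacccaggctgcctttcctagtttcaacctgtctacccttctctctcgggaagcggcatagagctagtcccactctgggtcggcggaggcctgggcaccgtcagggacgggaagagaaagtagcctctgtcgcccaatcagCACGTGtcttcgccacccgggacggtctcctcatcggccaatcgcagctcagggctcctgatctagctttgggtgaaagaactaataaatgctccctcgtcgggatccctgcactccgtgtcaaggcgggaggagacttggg
Tcf4 (chr18:65219395-65219694, plus strand): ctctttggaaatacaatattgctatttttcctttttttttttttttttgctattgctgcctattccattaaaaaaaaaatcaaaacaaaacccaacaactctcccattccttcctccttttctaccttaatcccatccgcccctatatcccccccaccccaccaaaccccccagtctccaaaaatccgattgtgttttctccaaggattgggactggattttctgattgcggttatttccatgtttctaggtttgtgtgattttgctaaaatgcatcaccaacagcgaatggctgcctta
Tcf3 (chr7:9931001-9931300, plus strand): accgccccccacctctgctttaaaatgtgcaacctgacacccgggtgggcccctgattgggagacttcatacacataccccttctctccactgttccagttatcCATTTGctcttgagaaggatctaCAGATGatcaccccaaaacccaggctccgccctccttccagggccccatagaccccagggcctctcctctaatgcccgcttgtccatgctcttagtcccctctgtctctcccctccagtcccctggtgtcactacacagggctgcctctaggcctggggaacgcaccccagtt
Pou3f2 and Pax3 hold 1 E-box each, Tcf3 holds 2 and Tcf4 none in these windows. An E-box was present in 19 of the 36 promoters (52.8%), beside 71.6% of 27457 promoters of all genes. The GC box GGGCGG, searched on both strands, was present in 23 of 36 (63.9%), beside 34.9% of all, and TATAAA, searched on both strands, in 0 of 36, beside 14.3%. The median GC content was 60.0%, beside 52.3% for all promoters. These are descriptions of the sequence, with no test.

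Of the 10 homeobox genes other than POU and PAX, 5 were measured in both channels on both arrays. Their log2 ratios were 0.07 to 0.26 on the withdrawal array and -0.26 to -0.04 on the array labelled Bcl-2. Emx2 and Lhx2 pattern the dorsal forebrain and keep its progenitors dividing. Emx2 was at 0.22 (4013 without bFGF against 3452 with bFGF) and -0.19 (3326 with Bcl-2 against 3805 with vector), the second inside the spread between probes. Lhx2 was at 0.10 (5982 against 5592) and -0.08 (5551 against 5869), both inside the spread between probes. Otx1, a factor of deep-layer cortical neurons, was at 0.26 (2016 against 1687) and -0.04 (1913 against 1971), the second 0.00 with the Feature Extraction ratio.

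Meis1, a cofactor of PBX and HOX proteins, was at 0.13 and -0.26, but its probes disagreed in sign on the withdrawal array, at 0.35 with 17506 against 13743 and at -0.08 with 1450 against 1532. Cux2, which marks upper-layer neurons and their precursors, was at 0.07 and -0.16. Its 2 probes well above background in both channels were both at -0.16 on the array labelled Bcl-2, and the third, in red alone, at 0.33. Otx2, a factor of the anterior neural plate, was well above background in red alone on the withdrawal array, with 118 against 99.5. Its fitted log2 ratio there was 0.25, and -0.12 with median centring, so no direction can be given. On the other array Otx2 was not well above background, with 95.6 against 98.5.

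**Figure D4:**
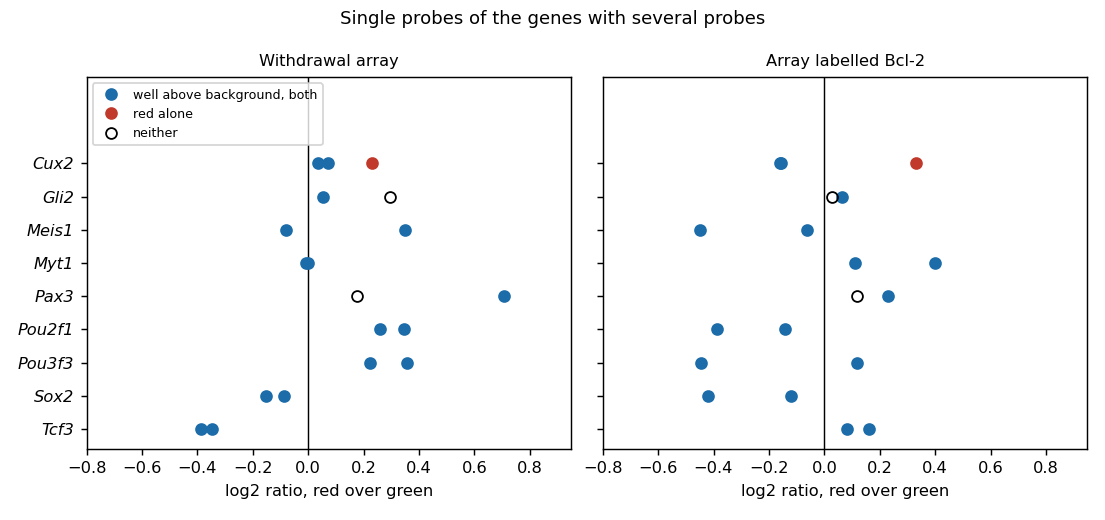
Points are log2 ratios of red over green (horizontal axis) of the single probes of the 9 listed genes with 2 or more probes, on the withdrawal array (left) and the array labelled Bcl-2 (right), coloured by whether the probe was well above background in both channels, red alone or neither. Both Tcf3 probes lie together on each array, while probes of Meis1 on the left and of Pou3f3 and Cux2 on the right fall on either side of 0. The Cux2 probe above 0 there was well above background in red alone.

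Zinc finger genes had a median log2 ratio of 0.09 on the withdrawal array (-0.03 with the Feature Extraction ratio) and 0.20 on the array labelled Bcl-2, with 7 of 11 measured. On the array labelled Bcl-2, 6 of the 7 lay above 0, Gli2 at 0.06 and Zic2 at 0.04 turning to -0.06 and -0.15 in at least 1 alternative. Rest, a repressor of neuronal genes outside neurons, had signals of 294 without bFGF against 266 with bFGF and 309 with Bcl-2 against 266 with vector. Its ratios were 0.15, inside the spread between probes, and 0.22. Gli3, which acts mainly as a repressor of hedgehog targets in the dorsal forebrain, was at 0.09 (286 against 268) and 0.24 (296 against 250), the first turning to -0.06 with the Feature Extraction ratio. Gli2, the main hedgehog activator, was at 0.05 and 0.06, the first turning to -0.03 with that ratio. These values come from 1 of its 2 probes. The other was not well above background in any channel, with signals of 104 against 85.0 and 83.9 against 82.3. The probes thus differ in whether Gli2 was detected.

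Myt1, a zinc finger factor of neuronal and oligodendrocyte precursors, was at -0.00 (0.15 with median centring) and 0.26, with 186 against 187 and 241 against 183 on its brightest probe. Bcl11a (Ctip1), a factor of cortical projection neurons, was at -0.19 (218 against 248) and 0.20 (237 against 206), both inside the spread between probes. Zic1 and Zic2, factors of the dorsal neural tube and medial forebrain, were at 0.20 and -0.12, and at 0.25 and 0.04. Both Zic1 values and the second Zic2 value lay inside the spread between probes. The ratio of Zic1 on the withdrawal array was 0.00 with the Feature Extraction ratio.

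All 3 nuclear receptor genes were measured in every channel. Nr2f1 and Nr2f2 (COUP-TFI and COUP-TFII), which pattern the cortex along its axes, and Nr2e1 (Tlx), which keeps neural stem cells dividing, lay above 0 on the withdrawal array and below 0 on the array labelled Bcl-2 under every alternative tried other than the turned sign. Nr2f1 had signals of 1313 without bFGF against 1061 with bFGF, and 1012 with Bcl-2 against 1302 with vector, which gave 0.31 and -0.36. Nr2f2 had 784 against 682 and 606 against 802, which gave 0.20, inside the spread between probes, and -0.40. Nr2e1 had 409 against 332 and 348 against 416, which gave 0.30 and -0.26. The medians of this class, 0.30 and -0.36 (-0.30 and 0.36 with the sign turned), rest on 1 probe per gene.

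The HMGA genes encode chromatin proteins that are abundant in early progenitors. Hmga1 was at -0.26 (148 against 176) and -0.06 (175 against 183), the second turning to 0.21 with the Feature Extraction ratio. Hmga2 was at -0.21 (120 against 139) on the withdrawal array, inside the spread between probes. It was well above background in green alone on the array labelled Bcl-2, with 119 against 142. The fitted log2 ratio there was -0.25, and -1.03 with the Feature Extraction ratio.

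Genes that oppose the bHLH factors were read beside them. Of the 9 ID, HES and HEY genes, 8 were measured, and all 8 lay above 0 on the withdrawal array, with a median log2 ratio of 0.39, beside 0.22 for the listed genes and 0.03 over all genes (7 of 8 lay above 0 in at least 1 alternative). At least 1.5-fold higher were 2 of them, where 7.94% of all genes were, and 1 of these, Id4, was at least 2-fold higher, where 2.42% of all genes were. Id4, which binds E proteins and keeps them from DNA, had signals of 1580 without bFGF against 655 with bFGF (1.27), and 669 with Bcl-2 against 1684 with vector (-1.33). Hes5, an effector of Notch, was at 0.61 (470 against 308) and 0.09 (515 against 485). Hes1 was at 0.52 and -0.69, and Hey2 at 0.55 and -0.56. The median was -0.33 on the array labelled Bcl-2, with 5 of 8 below 0 and 2 at least 1.5-fold lower, where 6.64% of all genes were. There, 7 of 8 lay below 0 with the Feature Extraction ratio (median -0.57), median centring (-0.41) and the value table (-0.72).

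Among 16 known targets of proneural factors, 12 were measured on each array, with medians of 0.21 (0.34 with the value table) and -0.03, the second turning to 0.01 with the Feature Extraction ratio and reaching -0.14 with the value table. At 1.5-fold, 4 were higher and 0 lower on the withdrawal array, beside 7.94% and 2.79% of all genes. On the other array 0 were higher and 3 lower, beside 2.29% and 6.64%. Rnd2, a small GTPase of migrating neurons that Neurog2 activates in mouse, had signals of 561 without bFGF against 260 with bFGF (1.11) and 284 with Bcl-2 against 504 with vector (-0.83). Mfng, a modifier of Notch, was at 0.62 and -0.66, the microtubule protein gene Dcx at 0.60 and -0.49, and the Notch ligand gene Dll1 at 0.59 and -0.08. Among 17 known REST targets, 13 were measured, with medians of 0.26 and -0.15. These medians were larger with the Feature Extraction ratio (0.58 and -0.92) and with the value table (0.68 and -1.11). At least 1.5-fold higher on the withdrawal array was 1 of the 13, where 7.94% of all genes were, and 2 were at least 1.5-fold lower on the other, where 6.64% were. The secreted peptide gene Vgf was at 1.24 (452 against 192) and -0.999 (215 against 429). The synaptic fusion gene Snap25 was at 0.50 and -0.34, the axon guidance cadherin gene Celsr3 at 0.44 and -0.37 and the secretory granule gene Chga at 0.40 and -0.69.

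Among 20 other members of the same families, 11 were measured, with medians of 0.08 and 0.21 (-0.08 and 0.41 with the Feature Extraction ratio). Olig1 and Olig2, bHLH factors of the oligodendrocyte lineage, were measured in all channels, Olig1 at 0.41 and 0.03, the second turning to -0.18 with the deposited value table, and Olig2 at -0.20 and 0.26. Olig1 had signals of 66320 without bFGF against 49992 with bFGF, and 62143 with Bcl-2 against 60901 with vector. On its brightest probe Olig2 had 42766 against 40829, and 46677 against 33346. The 2 probes of Olig2 disagreed in sign on the withdrawal array (-0.47 and 0.07), and median centring gave 0.03. Bhlhe40, a repressor of clock genes, was at -0.75 and 0.47. Neurod4, Atoh1 and Nhlh2 were not well above background on either array.

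Markers of other cells were read on the same arrays. Of 8 astrocyte markers, 6 were measured. All 6 lay above 0 on the withdrawal array (5 with median centring), where 54.2% of all genes did, with a summed signal of 44704 without bFGF against 16845 with bFGF. All 6 lay below 0 on the array labelled Bcl-2, where 5302 of 10241 genes did, with 18593 against 45764. Slc1a2 and Aqp4, at 190 and 182 without bFGF, add little to these sums. The 2 probes of Aqp4 disagreed in sign on the withdrawal array (-0.35 and 0.59). The defining marker Gfap, and Gjb6, were not well above background. Of 9 neuron markers, 7 were measured, with 6 of 7 above 0 and a median of 0.42 on the withdrawal array, and 4 of 7 below 0 and a median of -0.15 on the array labelled Bcl-2 (-0.30 with the value table). Their summed signals were 11330 without bFGF against 9618 with bFGF and 10778 with Bcl-2 against 10245 with vector, sums in which Map2 and Elavl4 are the brightest. The neuronal tubulin gene Tubb3 was at 1.03 (479 against 235) and -0.58 (314 against 468), and Syt1 was not well above background. Of 7 fibroblast and meninges markers, 7 were measured on the withdrawal array (8601 against 5389) and 6 on the other (2934 against 8011). The collagen genes among them carry most of these sums. Dcn, Lum, Foxc1 and Pdgfrb had signals of 111 to 144 without bFGF, and Lum and Pdgfrb were well above background there in red alone. The part of these cells in the ratios of the listed genes was not tested.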

How the data were processed

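Total RNA was measured on 2 two-colour Agilent rat arrays of 44254 spots (42877 for genes), both on 1 slide. Per the file headers, Feature Extraction 11.5.1.1 made the deposited files, while the submitters' processing notes name Agilent Feature Extraction 8.5.1.1. The deposited intensity values are medians over pixels per channel, not normalized; processed intensity and the log10 ratio with its error are also deposited, background-subtracted and dye-normalized per the file headers. A value table deposited by the authors gives 1 linear ratio per array (medians 0.932 and 0.944) without stating direction or centring. Compared with the scanner ratios within 0.05 on the log2 scale, column 1 matched withdrawal red over green for 100% of probes. Column 2 matched its own array for 7.06% and the 2 arrays' ratios multiplied together for 100%; the quotient was used for it. Its centring stays unknown.

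Here, median intensities were corrected by normexp (offset 50) and normalized by loess within arrays, with controls at weight 0 (limma 3.58.1, R 4.3.3), then scaled between arrays by Aquantile for the channel signals, and tested on simulated data. Outlier spots (609 and 658) were left out, and 0 were saturated. In the marker lists and other gene lists, a gene whose spots were all left out also counts as not well above background. Accessions without version were matched to RefSeq symbols (GRCr8), which named 60.4% of 30367 probes. A gene takes the median log2 ratio of its probes well above background in at least 1 channel, and counts as 2-fold or 1.5-fold only if those probes agree in sign. For genes read in 1 channel, a further fold was taken. In it, the dim channel took its own signal or the lowest one called well above background, whichever was larger. For Otx2 and Hmga2 the own signal was larger, so the fitted ratio alone is given. Counting and drawing used Python 3.11.15, numpy 2.4.6, pandas 2.3.3 and matplotlib 3.10.9.

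Members and lists were chosen with earlier results of these data known. All measured members are given; channel values go to those at least 1.5-fold and to Sox2, Pax6, Neurod1, Rest and Tcf4 by rule, and to others as the text needs. From other lists, the 4 genes with the largest ratio on the withdrawal array, measured in all channels, are named, and some results are not reported here. The precision is limited by 1 array per comparison. Tried as alternatives were normexp with offset 10, the Feature Extraction ratio, median centring, both or no background filter, the brightest probe, the value table and the turned sign.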

Additional observations from a re-analysis of the deposited data

How the results depend on the processing

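No paired analysis was possible because each comparison has 1 array and no replicate, and for the same reason no array could be left out in turn. Of the 34 listed genes measured on each array, 28 kept their sign on each under every alternative other than the turned sign. Of the listed genes, 35 were above background on at least 1 array, and 33 when every probe or both channels were required. Where 1 channel was not well above background (Otx2, Neurod2 and Hmga2, each on 1 array), the fitted ratio is uncertain. A fold against the lowest signal called well above background is given for Neurod2 alone. The cause of the differences below was not tested.

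On the withdrawal array, the median of the listed genes, 0.22, was 0.45 with median centring, where the median of all genes was 0.17 (0.28 above it, beside 0.19 in the reported setting), and -0.22 with the sign turned. Class medians there were higher with median centring, at 0.52 for SOX, POU and nuclear receptor genes, 0.73 for PAX, 0.69 for bHLH, 0.40 for homeobox and 0.26 for zinc finger genes. With the Feature Extraction ratio, 1 listed gene passed 2-fold (1 higher) and 4 passed 1.5-fold (1 lower). With the value table, 1 passed 2-fold (1 higher) and 4 passed 1.5-fold (4 higher), and with median centring 6 (6 higher). With the sign turned, the 1.5-fold counts were 0 higher and 2 lower. Over all genes, 314 were at least 2-fold, against which there were 536 with offset 10, 1124 with the Feature Extraction ratio, 507 with median centring and 1277 with the value table. At 1.5-fold, 1165 compared with 2529, 1912 and 2693 with the last 3 of these.

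On the array labelled Bcl-2, the median of -0.12 became 0.12 with the sign turned. The medians of PAX and bHLH genes, 0.05 and 0.03, became -0.02 for both with median centring. The bHLH median includes Neurod2, read in red alone, and was -0.07 with both channels required. That of HMGA genes, -0.16, became -0.55 with the value table. With both channels required, which leaves out Hmga2, it was -0.06 for 1 gene. With the Feature Extraction ratio, 2 listed genes passed 2-fold (1 lower) and 3 passed 1.5-fold (2 higher, 1 lower). With the value table these were 2 (1 lower) and 3 (2 lower). Median centring gave 2 at 1.5-fold (1 lower), and requiring both channels gave 0 at either limit. With the sign turned, 0 were higher and 1 lower at either limit. Over all genes, 262 at 2-fold compared with 1048 by the Feature Extraction ratio and 1105 by the value table, and 915 at 1.5-fold with 2334 and 2336.

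The share of genes at least 1.5-fold that were higher in red was 74.0% on the withdrawal array (64.0% by the Feature Extraction ratio, 89.6% by median centring, 26.0% turned) and 25.7% on the array labelled Bcl-2 (43.7% by the Feature Extraction ratio, 74.3% turned). At 2-fold it was 21.8% on the array labelled Bcl-2, against 34.2% by the Feature Extraction ratio.

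With the sign turned, the withdrawal array gave log2 ratios of -0.70 for Sox4, -0.71 for Pax3, 0.75 for Bhlhe40, -0.60 for Dcx, -0.59 for Dll1, -0.61 for Hes5, -1.27 for Id4, -0.62 for Mfng, -1.11 for Rnd2 and -1.24 for Vgf. The array labelled Bcl-2 gave -1.14 for Neurod2, 0.69 for Chga, 0.69 for Hes1, 1.33 for Id4, 0.66 for Mfng, 0.83 for Rnd2 and 0.999 for Vgf.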

Other observations

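The remaining marker lists were read on the same arrays, as values of single arrays. Of 11 neural stem cell markers, 10 were measured on the withdrawal array and 9 on the array labelled Bcl-2, with median log2 ratios of 0.26 (0.52 with median centring) and -0.27. Within them, Fabp7, a fatty acid binding protein gene of radial glia, was at 1.26 and -0.91, and the glutamate transporter gene Slc1a3 at 0.75 and -0.75. The intermediate filament gene Vim lay the other way, at -0.49 and 0.56. Of 8 oligodendrocyte lineage markers, 7 were measured, with 5 of 7 above 0 on the withdrawal array and 4 of 7 below 0 on the other. The growth factor receptor gene Pdgfra was at 0.51 and -0.47, and the myelin gene Mog was not well above background. Of 6 microglia markers, 4 were measured (-0.10 and 0.15, and -0.40 and 0.30 with the Feature Extraction ratio), and Ptprc and Itgam were not well above background. Of 6 endothelium markers, 2 were measured (0.19 and -0.07, the second 0.03 with the Feature Extraction ratio). Of 9 ventral forebrain and interneuron markers, 4 and 3 were measured (0.12 and -0.05). The first median was -0.03 with median centring, and the second was -0.62 with the Feature Extraction ratio, -0.76 with the value table and 0.02 with both channels required, which left 1 gene. The homeobox gene Dlx5 was at 1.98 on the withdrawal array, well above background in red alone (485 without bFGF against 123 with bFGF). It was not measured on the other array, where a dim spot and a spot left out as an outlier were not told apart. Gsx2, Nkx2-1 and Gad2 were not well above background.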
